A study of Mus musculus with 24 samples.

Results

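The mitochondrial respiratory chain passes electrons from NADH and succinate to oxygen through complexes I to IV, and complex V, the ATP synthase, uses the proton gradient they build. Most subunits are encoded in the nucleus, translated on cytosolic ribosomes and imported, while a small core is encoded in the mitochondrial genome. In granulosa cells mitochondria also hold the first step of steroid hormone synthesis, and luteinising hormone is known to turn these cells towards progesterone production. The genes described here were nuclear genes of these complexes, taken by symbol (Nduf for complex I, Sdh for complex II, Uqcr for complex III, Cox for complex IV and Atp5 for complex V, by a pattern that leaves out assembly factors and some subunits such as Cox4i1), with a mean of at least 1 CPM (counts scaled per library total) over the 24 libraries. Of 39253 genes in the count table, 81 matched the names and 76 reached that level: 37 of complex I, 4 of complex II, 8 of complex III, 10 of complex IV and 17 of complex V. Ndufa4 was counted with complex I by its symbol, although its protein is now placed in complex IV. All 76 passed the filter on low counts in the tests. The mitochondrially encoded subunits were looked up by symbol and not found in the count table, so they were not analysed here.

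The cells were granulosa cells of 23-day-old C57BL/6 mice, taken 48 h after PMSG (a gonadotropin that drives follicle growth), pooled from 2 mice and cultured. They were transfected for 3 h with an siRNA against Nts, the gene of the peptide neurotensin (siNTS), or with a control siRNA (siNC), and then kept for 4 h or 12 h with hCG, which acts on the luteinising hormone receptor, or in plain medium. The groups were siNTS with hCG, siNC with hCG and siNC without hCG at 4 h, and the same 3 groups at 12 h. Each had 4 libraries labelled A_1, A_2, B_2 and B_3, from 3 culture dates, of which A_2 and B_2 share one. No group had siNTS without hCG, so the siRNA was compared under hCG alone. The labels do not say whether libraries of 1 group came from separate cell pools, so the p-values rest on the spread of these libraries, part of which may be technical.

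The libraries held about 26182200 to 45401100 estimated counts. Nts was at 1.99, 4.39, 4.16 and 42.9 CPM in siNTS cells with hCG at 4 h (labels A_1, A_2, B_2 and B_3, the order used throughout), against 16.1, 28.7, 22.9 and 180 CPM in siNC cells with hCG. At 12 h it was at 0.154, 0.121, 0.0764 and 2.73 CPM in siNTS cells, against 2.69, 1.56, 1.49 and 9.67 CPM in siNC cells, so it was lower in siNTS cells under each label at both times. All 10 granulosa markers were detected, and their summed level over the groups ran from 1784 to 4473 CPM. The 5 red blood cell markers summed to 101 to 4283 CPM, while the oocyte list reached at most 19.9 CPM and the theca list at most 1.98 CPM. In bulk samples fewer cells of a type and less RNA per cell cannot be told apart.

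The subunit genes were well expressed in these cells. Their mean levels ran from 1.39 CPM for Cox6b2 to 1686 CPM for Atp5b, the catalytic beta subunit of the ATP synthase, with a median of 110 CPM, and the next lowest after Cox6b2 was Ndufb3 at 37.4 CPM. Per kilobase of transcript, the level was 890.3 CPM for Atp5b, against a median of 126 CPM over 75 genes with a known length. By complex, the median level per kilobase was 250 CPM in complex IV and 244 CPM in complex V, against 144 CPM in complex III, 99.0 CPM in complex I and 92.4 CPM in complex II.

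Where a complex IV subunit has alternative forms that the name pattern matches, the common form made up nearly all of it. Cox4i1 and Cox4i2 lie outside the pattern and their levels are not given here. Per kilobase, Cox6a1 was at a level of 350.3 CPM beside 1.27 CPM for its heart and muscle form Cox6a2, Cox6b1 at 266 CPM beside 2.81 CPM for its testis form Cox6b2, and Cox7a2 at 178 CPM beside 2.31 CPM for its heart and muscle form Cox7a1. Cox8a was at 264 CPM per kilobase, while its forms Cox8b and Cox8c, and Cox7b2, had mean levels of 0.00227, 0.00492 and 0.00546 CPM and lay far below the limit of 1 CPM. Just under that limit were Cox7a1 at a mean of 0.910 CPM and Cox6a2 at 0.862 CPM, and just over it Cox6b2. Of the genes whose different precursors give the same mature ring subunit c of the ATP synthase, Atp5g3 was at 640.4 CPM per kilobase, Atp5g2 at 232 CPM and Atp5g1 at 46.0 CPM. Ndufa4 was at 265 CPM per kilobase. Many of these genes have near-identical pseudogene copies, and how the estimated counts divide reads between copies was not tested.

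Promoters of some genes named in the results are shown here because respiratory genes share known upstream factors. RefSeq windows of 300 bases (250 before to 50 after the start, build GRCm38.p6) were on hand for 65 of the 76 genes. The 5 motifs searched, on both strands, were GCGCA, any base and then GCGC, the element of nuclear respiratory factor NRF1; CCGGAAG, bound by the ETS factor GABP; AANATGGCG, bound by YY1; TGACGTCA, the cAMP response element; and TCAAGGTCA, the element of estrogen-related receptors. At least 1 motif stood in a window of 41 of the 65 genes (63.1%), against 17.7% of all 27025 genes with a window. Those 27025 include genes not expressed in these cells, and no comparison with expressed genes alone was made. The NRF1 letters were in 17 (26.2%, against 5.19% of all genes), the GABP letters in 17 (26.2%, against 9.93%) and the YY1 letters in 10 (15.4%, against 2.76%). The cAMP response element was in 4 (6.15%, against 2.03%) and the estrogen-related receptor letters in 2 (3.08%, against 0.466%). In the sequences below, all on the minus strand, capitals mark the matches, none of which overlapped another. Sdha, the flavoprotein of complex II, lies at chr13:74350191-74350490 and held 3 NRF1 matches, and Ndufa10, an accessory subunit of complex I, lies at chr1:92473709-92474008 and held 1 cAMP response element. Cox6b1 lies at chr7:30626065-30626364 and held 1 GABP match, read on the opposite strand, and its testis form Cox6b2 lies at chr7:4753045-4753344 and held none of the motifs. The window of Cox5a (chr9:57520982-57521281, plus strand) also held none of the motifs, and its sequence is not shown. A match describes letters in a window and not a bound site.
Sdha: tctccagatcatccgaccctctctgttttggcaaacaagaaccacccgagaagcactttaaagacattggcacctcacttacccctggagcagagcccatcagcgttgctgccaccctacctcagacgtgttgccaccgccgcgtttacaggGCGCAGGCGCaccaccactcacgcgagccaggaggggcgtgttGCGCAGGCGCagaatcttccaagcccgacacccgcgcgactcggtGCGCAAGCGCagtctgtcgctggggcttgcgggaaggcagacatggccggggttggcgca
Ndufa10: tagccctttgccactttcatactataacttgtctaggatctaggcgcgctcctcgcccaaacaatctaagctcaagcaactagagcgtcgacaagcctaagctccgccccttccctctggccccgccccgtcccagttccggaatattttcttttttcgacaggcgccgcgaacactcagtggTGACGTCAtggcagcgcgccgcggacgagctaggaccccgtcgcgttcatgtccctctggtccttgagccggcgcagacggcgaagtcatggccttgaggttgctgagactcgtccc
Cox6b1: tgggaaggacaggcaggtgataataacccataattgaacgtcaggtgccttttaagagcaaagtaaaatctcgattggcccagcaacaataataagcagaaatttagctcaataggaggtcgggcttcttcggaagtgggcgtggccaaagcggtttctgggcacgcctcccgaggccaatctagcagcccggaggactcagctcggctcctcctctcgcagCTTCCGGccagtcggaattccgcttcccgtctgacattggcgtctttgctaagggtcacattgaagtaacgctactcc
Cox6b2: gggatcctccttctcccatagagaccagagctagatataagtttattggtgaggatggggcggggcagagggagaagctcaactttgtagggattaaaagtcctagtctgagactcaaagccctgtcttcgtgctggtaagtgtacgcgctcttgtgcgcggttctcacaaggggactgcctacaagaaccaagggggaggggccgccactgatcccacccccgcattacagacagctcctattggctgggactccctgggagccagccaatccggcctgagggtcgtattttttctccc

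The subunit genes moved together from library to library, largely across the groups rather than with them. Their summed level ran from 7529 CPM in the siNTS hCG 4 h library B_3 to 21497 CPM in the siNTS hCG 12 h library A_1, a 2.86-fold range. In siNC cells without hCG it was 8702, 10435, 15728 and 10014 CPM at 12 h, against 18714, 9648, 10387 and 7881 CPM at 4 h. A_1 was thus the lowest library of the 12 h group and stood far above the others in the 4 h group. In all, 74 of the 76 genes had their highest level in a library labelled A_1, 64 of them in siNTS hCG 12 h and 9 in siNC without hCG at 4 h, and 58 had their lowest in a 4 h library labelled B_3. The median gene differed 3.41-fold between its highest and lowest library, from 1.91-fold for Ndufs1, an iron-sulfur subunit at the core of complex I, to 18.9-fold for Cox6b2.

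**Figure D1:**
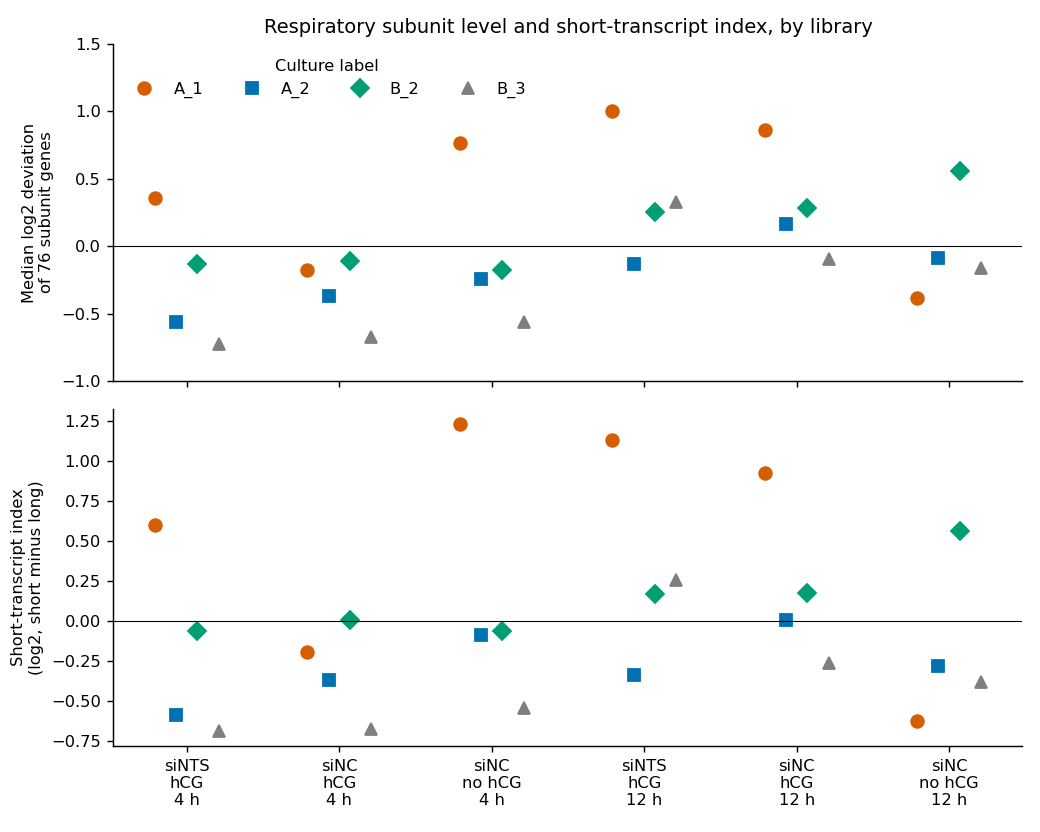
Median log2 deviation of the 76 subunit genes from their own means (top) and short-transcript index (bottom) in each of the 24 libraries, by group, with 1 point per library and symbols for the culture labels. A_1 is the highest library in 4 of the 6 groups and the lowest in siNC without hCG at 12 h, and the upper values move with the lower ones.

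Transcript length moved with these levels. Of 75 subunit genes with a length, 49 (65.3%) had transcripts under 1000 nt, against 6.00% of all tested genes, and the median was 758 nt against 2940 nt. A short-transcript index was therefore computed for each library from other genes, as the median log2 deviation of 343 genes under 1000 nt minus that of 2758 genes over 4000 nt, with subunit genes and ribosomal proteins left out. It ran from -0.68 in the siNTS hCG 4 h library B_3 to 1.23 in the A_1 library of siNC cells without hCG at 4 h. In that A_1 library the median subunit gene lay 0.77 above its own mean on the log2 scale, while the median mitochondrial ribosomal protein lay 0.79 and the median cytosolic ribosomal protein 1.17 above theirs. The slope of a subunit gene on the index, with the groups fitted, had a median of 0.78 log2 units per index unit and was highest for Atp5e, the epsilon subunit of the ATP synthase, at 1.06. For 3 genes with long transcripts the slope was near 0, at -0.06 for Sdha (2900 nt), 0.02 for Ndufs1 (2661 nt) and 0.06 for Ndufa10 (2020 nt). Length alone did not fix the slope, which was 0.73 for Sdhc (3171 nt), a membrane anchor of complex II. What sets the index of a library was not tested.

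**Figure D2:**
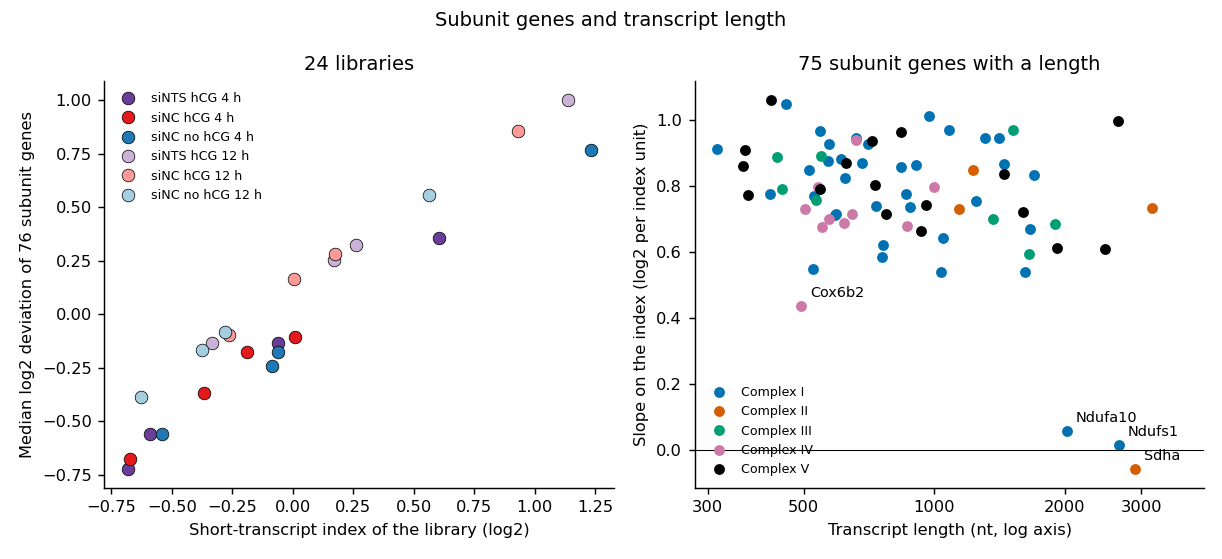
Left, median log2 deviation of the 76 subunit genes against the short-transcript index, 1 point for each of 24 libraries, coloured by group. Right, slope of each of 75 subunit genes on the index against transcript length (log axis), coloured by complex. At a like index the 12 h libraries lie above the 4 h libraries, and Sdha, Ndufs1 and Ndufa10 have slopes near 0.

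Each comparison is given first from the groups alone, with edgeR's quasi-likelihood test over 15405 genes, and a gene is called where its Benjamini-Hochberg adjusted p is under 0.05. Fold changes are on the log2 scale, with a standard error (SE) and 4 libraries per group. This SE was worked back from the test, as the absolute log2 fold change over the square root of its F statistic. Since the index differs widely between libraries of 1 group, the same test with the index as a covariate, chosen after these data were seen, stands beside it. The covariate takes out whatever moves with other short transcripts, including any part of a change in the subunit genes that they share. The index was estimated from these same libraries and enters the fit as if known exactly. The SE and p-values of that fit therefore leave out the error of the index.

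Culture time in siNC cells without hCG was compared as 12 h over 4 h. With groups alone, 3 subunit genes were called, all higher at 12 h, where 14.8% of all genes were called higher and 30.8% either way. They were Sdha, Ndufa10 and Cox6b2. Sdha was at 272, 281, 294 and 283 CPM at 12 h, against 165, 222, 217 and 176 CPM at 4 h. Every 12 h library lay above every 4 h library, and the log2 fold change was 0.54 ± 0.11 (SE, adjusted p = 0.000617). Ndufa10 was at 104, 106, 124 and 106 CPM at 12 h, against 80.9, 95.1, 89.8 and 77.8 CPM at 4 h. The groups again did not overlap (0.36 ± 0.09, adjusted p = 0.00585), but the call was lost without label B_2 (adjusted p = 0.0726), without B_3 (0.0545) and with only these groups in the fit (0.0668). Cox6b2 was at 2.08, 2.17, 3.02 and 3.72 CPM at 12 h, against 0.878, 0.716, 0.503 and 0.664 CPM at 4 h. It met the limit of 1 CPM that chose the genes through the 12 h libraries, since every 4 h library was under 1 CPM, so its call with culture time is a description and supports nothing. The most negative fold change was that of Uqcrq, a small subunit of complex III (-0.47 ± 0.38, adjusted p = 0.360). In the fit blocked by label 4 genes were called higher, where 21.9% of all genes were, and the added one was Ndufv3, an accessory subunit of complex I (0.47 ± 0.17, adjusted p = 0.0337).

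With hCG present Sdha and Ndufa10 also stood higher at 12 h, a comparison for which no test was run. Sdha averaged 287 ± 7.84 CPM at 12 h against 163 ± 21.5 CPM at 4 h in siNTS cells, and 284 ± 13.7 CPM against 166 ± 14.4 CPM in siNC cells (SD, n = 4 each). Ndufa10 was at 137, 118, 128 and 131 CPM at 12 h against 64.6, 75.1, 80.3 and 67.9 CPM at 4 h in siNTS cells, and averaged 124 ± 7.21 CPM at 12 h against 72.6 ± 5.29 CPM at 4 h in siNC cells. No 4 h library of any group reached the lowest 12 h library for Sdha or Ndufa10.

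For the other subunit genes the A_1 libraries ran against the rest. The median gene had a 12 h over 4 h log2 ratio of -1.14 under A_1, 0.15 under A_2, 0.74 under B_2 and 0.41 under B_3, while the index differed by -1.86, -0.19, 0.63 and 0.16. Higher at 12 h under each of the 4 labels were 4 genes, Sdha, Ndufa10, Ndufs1 and Cox6b2, where 21.2% of all genes were, and for Cox6b2 the limit above holds here too. Without the A_1 libraries 21 genes (27.6%) were called, all higher. Called higher in that fit were 15% of all genes and 22.2% of the 343 other genes under 1000 nt. The median log2 fold change of the subunit genes was then 0.50, against 0.00 with all libraries, and that of the other short genes was 0.25. Marker lists also differed in level in this comparison: the red blood cell list summed to 112 to 1496 CPM at 12 h against 336 to 4283 CPM at 4 h, the macrophage list to 4.42 to 6.89 CPM against 10.6 to 20.7 CPM, and the granulosa list to 2237 to 2585 CPM against 3228 to 4052 CPM. Higher at 12 h was the endothelium list, at 4.25 to 4.99 CPM against 2.21 to 4.11 CPM, and the smooth muscle list was at 50.1 to 118 CPM against 32.1 to 50.9 CPM. The fibroblast, oocyte and theca lists overlapped widely. Their part in the result was not tested.

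With the index as a covariate, 56 of the 76 (73.7%) were called higher at 12 h, Cox6b2 among them, and 1 lower, where 24.5% of all genes were called higher and 24.5% lower. The median subunit gene was 0.28 higher on the log2 scale. In the same fit, 132 of the 343 other short genes were called higher (38.5%) and 94 lower (27.4%), the mitochondrial ribosomal proteins had 14 higher and 29 lower of 78, and the cytosolic ribosomal proteins 1 higher and 4 lower of 81. By complex, those higher were 29 of 37 in complex I, 2 of 4 in complex II, 4 of 8 in complex III, 9 of 10 in complex IV and 12 of 17 in complex V. Without label A_1 this fit called 57, all higher, where 21.6% of all genes were called higher.

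The smallest adjusted p-values of the covariate fit were in complex I. Ndufa6, an accessory subunit of the matrix arm, was at 65.4, 77.5, 116 and 76.1 CPM at 12 h, against 107, 56.6, 57.7 and 45.8 CPM at 4 h. It was higher at 12 h under 3 labels and lower under A_1, with a log2 fold change of 0.60 ± 0.05 with the covariate (adjusted p = 1.37e-08) and 0.33 ± 0.28 without it (0.386). Ndufb11, an accessory subunit of the membrane arm, was at 68.5, 84.5, 141 and 79.6 CPM at 12 h, against 129, 58.7, 64.7 and 46.2 CPM at 4 h, and showed the same order of labels (0.66 ± 0.06, adjusted p = 2.56e-08 with the covariate). The others of the 10 smallest were Ndufa3 (0.64), Ndufv3 (0.63), Ndufa13 (0.55), Ndufb7 (0.49), Uqcr11 of complex III (0.49), Ndufa7 (0.47), Atp5j2 of the membrane part of the ATP synthase (0.46) and Ndufb9 (0.43).

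Other named subunits were in part called in that fit. Ndufv1, the subunit of complex I that binds NADH, was higher (0.22 ± 0.06, adjusted p = 0.00773). Uqcrfs1, the Rieske iron-sulfur protein of complex III, was higher (0.17 ± 0.06, adjusted p = 0.0242), and so were Cox5b (0.33 ± 0.05, 9.96e-06) and Cox6c (0.41 ± 0.06, 2.26e-05) of complex IV. The catalytic subunits of the ATP synthase were not called, with 0.11 ± 0.05 for Atp5a1 (adjusted p = 0.0849) and 0.04 ± 0.05 for Atp5b (0.521). Nor were Sdhb, the iron-sulfur subunit of complex II (0.06 ± 0.06, adjusted p = 0.448), Uqcrc1, a core protein of complex III (0.12 ± 0.08, 0.198), and Ndufs1 (0.13 ± 0.08, 0.186). Cox5a of complex IV was the 1 gene called lower (-0.11 ± 0.05, adjusted p = 0.0491), and that call was lost when A_1 was also left out (adjusted p = 0.240).

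Minor forms of complex IV subunits were called in both directions with culture time. Cox6b1, the common form of Cox6b2, was at 120.3, 149, 240.1 and 142 CPM at 12 h, against 236, 126, 129.8 and 108 CPM at 4 h, with wide overlap. Cox6a2, under the limit of 1 CPM, was at 0.431, 0.224, 0.956 and 0.633 CPM at 12 h, against 1.91, 1.37, 1.98 and 1.77 CPM at 4 h, and fell without overlap (-1.65 ± 0.44, adjusted p = 0.00644). Cox7a1, also under the limit, was at 1.02, 1.72, 1.73 and 1.56 CPM at 12 h, against 0.903, 0.629, 0.539 and 0.910 CPM at 4 h, and rose without overlap (1.00 ± 0.31, adjusted p = 0.0161).

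**Figure D3:**
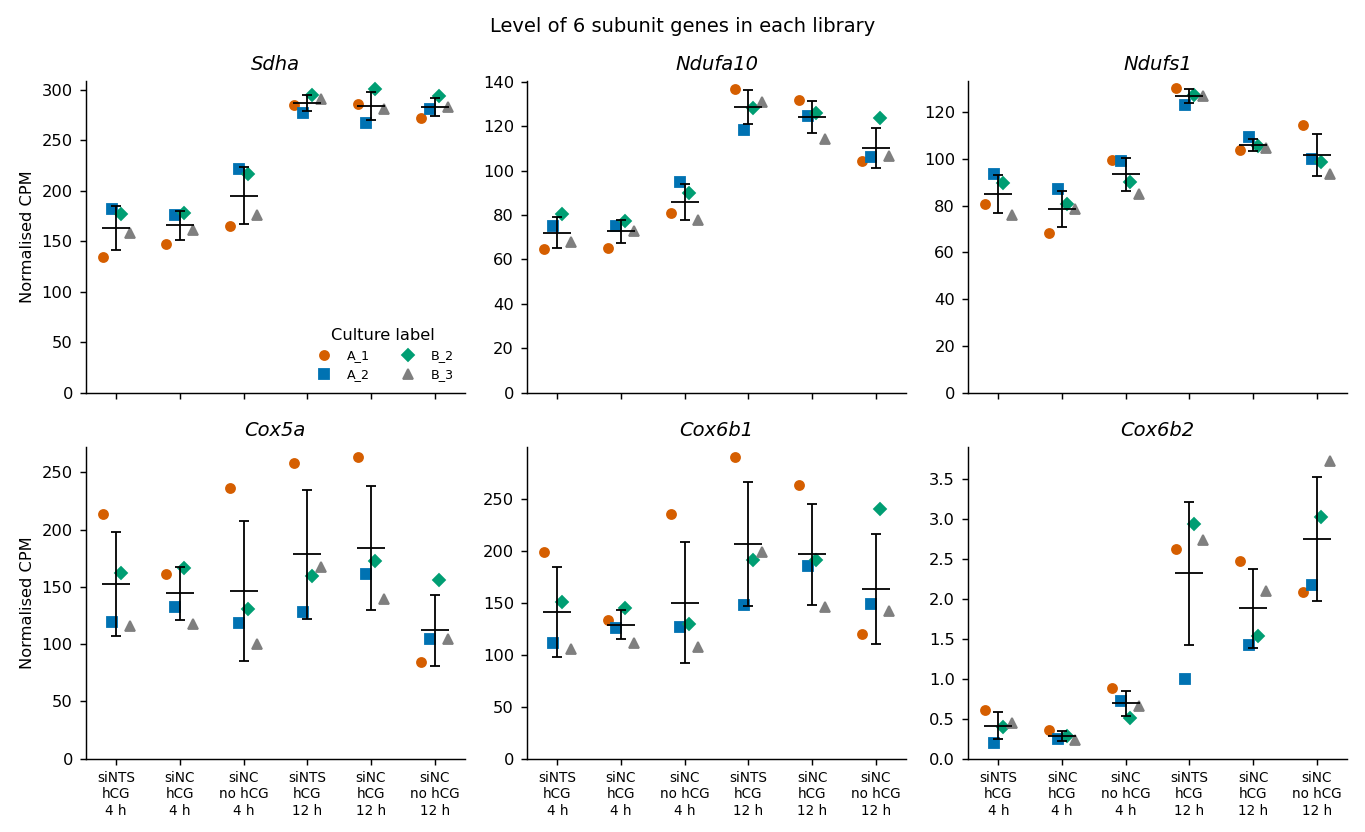
Normalised CPM of 6 subunit genes in each library, by group, with symbols for the culture labels and black bars for the mean ± SD (n = 4). Sdha and Ndufa10 are higher in every 12 h library than in any 4 h library, while Cox5a and Cox6b1 spread widely within groups.

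hCG was set against no hCG at 4 h in siNC cells, using the same 4 h libraries without hCG as the culture time comparison. With groups alone 1 of the 76 genes was called, lower with hCG, where 19.1% of all genes were called and 11.1% were called lower. It was Cox6b2, at 0.362, 0.241, 0.288 and 0.228 CPM with hCG, against 0.878, 0.716, 0.503 and 0.664 CPM without. The groups did not overlap (-1.31 ± 0.37, adjusted p = 0.0145), and the call was lost without label A_1 (adjusted p = 0.0523), B_2 (0.0633) or B_3 (0.0936). Of the 76, 75 had a log2 fold change below 0. The median was -0.36, against -0.07 over all genes and -0.31 over the 343 other short genes. By label, the median log2 ratio was -0.96 under A_1, -0.14 under A_2, 0.06 under B_2 and -0.12 under B_3, while the index differed by -1.42, -0.28, 0.07 and -0.13. Without A_1 the median was -0.02 and edgeR's test called none, where 16.1% of all genes were called, with 3 at an unadjusted p under 0.05. Lower under each label were 32 genes, where 26.5% of all genes were, and higher under each was 1, Atp5d, where 21.6% were. The summed levels of the 8 marker lists overlapped between these groups.

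In the fit blocked by label 10 genes were called lower, where 17.3% of all genes were. Besides Cox6b2 and Sdha (-0.23 ± 0.08, adjusted p = 0.0465), they were 8 subunits of complex I: Ndufv3 (-0.55 ± 0.17, 0.0220), Ndufs1 (-0.25 ± 0.08, 0.0287), Ndufa10 (-0.24 ± 0.08, 0.0311), Ndufb3 (-0.56 ± 0.19, 0.0325), Ndufb10, Ndufs3, Ndufa6 and Ndufs7. Of the 76, 5 had in the authors' deposited table an adjusted p under 0.05, all lower, where 27.6% of the listed genes did: Cox6b2 (-1.14), Ndufb3 (-0.55), Ndufv3 (-0.54), Ndufs1 (-0.25) and Ndufa10 (-0.24). Sdha and Ndufs1 have slopes near 0 on the index. Sdha was at 147, 176, 178 and 161 CPM with hCG, against 165, 222, 217 and 176 CPM without, lower under each label although the groups overlap. Ndufs1 was at 68.1, 87.0, 80.8 and 78.3 CPM with hCG, against 99.5, 99.1, 90.0 and 84.8 CPM without, also lower under each label, with 1 hCG library above the lowest library without hCG.

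With the index as a covariate subunit genes were called in both directions at 4 h of hCG. Called higher were 22 (28.9%, where 17.4% of all genes were) and called lower were 11 (14.5%, where 20.2% were). Without label A_1 these were 17 and 9, where 15.1% and 15% of all genes were. In complex I 5 were higher and 9 lower of 37, in complex II 1 and 1 of 4, in complex III 3 and 0 of 8, in complex IV 5 and 1 of 10 and in complex V 8 and 0 of 17. A difference between complexes was not tested. In the same fit the cytosolic ribosomal proteins had 59 higher and 0 lower of 81, and the other short genes had 25.7% higher and 19.5% lower.

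Among those higher, Atp5d, a subunit of the central stalk of the ATP synthase, had the largest fold change. It was at 302, 217, 266 and 162 CPM with hCG, against 240.4, 169, 173 and 128 CPM without, higher under each label although the groups overlap. Its log2 fold change was 0.71 ± 0.10 with the covariate (adjusted p = 7.46e-06) and 0.42 ± 0.27 with groups alone (0.314). Cox5a was at 161, 133, 166 and 118 CPM with hCG, against 236, 119, 130.3 and 99.8 CPM without, higher under 3 labels and lower under A_1, with 0.37 ± 0.05 with the covariate (adjusted p = 4.17e-06). The others of the 10 smallest adjusted p-values were Atp5md (0.34), Ndufa1 (0.34), Atp5mpl (0.29), Atp5g3 (0.28), Uqcrh (0.27), Ndufa4 (0.26), Sdhd (0.23) and Atp5h (0.21). The catalytic subunits Atp5a1 (0.16 ± 0.05, 0.0211) and Atp5b (0.16 ± 0.05, 0.0222) were also called, and both calls were lost when A_1 was left out as well (adjusted p = 0.0717 and 0.0958).

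Among those lower, 9 were accessory or core subunits of complex I. They were Ndufv3 (-0.30 ± 0.08, adjusted p = 0.00463), Ndufb3 (-0.27 ± 0.07, 0.00292), Ndufs1 (-0.24 ± 0.08, 0.0226), Ndufs4 (-0.22 ± 0.07, 0.0219), Ndufa10 (-0.22 ± 0.08, 0.0384), Ndufa6 (-0.21 ± 0.05, 0.00377), Ndufb10 (-0.21 ± 0.06, 0.00755), Ndufs3 (-0.18 ± 0.06, 0.0150) and Ndufc2 (-0.16 ± 0.05, 0.0268). Sdha (-0.26 ± 0.09, 0.0364) and Cox6b2 (-1.11 ± 0.34, 0.0139) completed the 11. When A_1 was left out as well, Ndufb3 (adjusted p = 0.0704), Ndufs1 (0.221) and Ndufs4 (0.141) were no longer called.

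**Figure D4:**
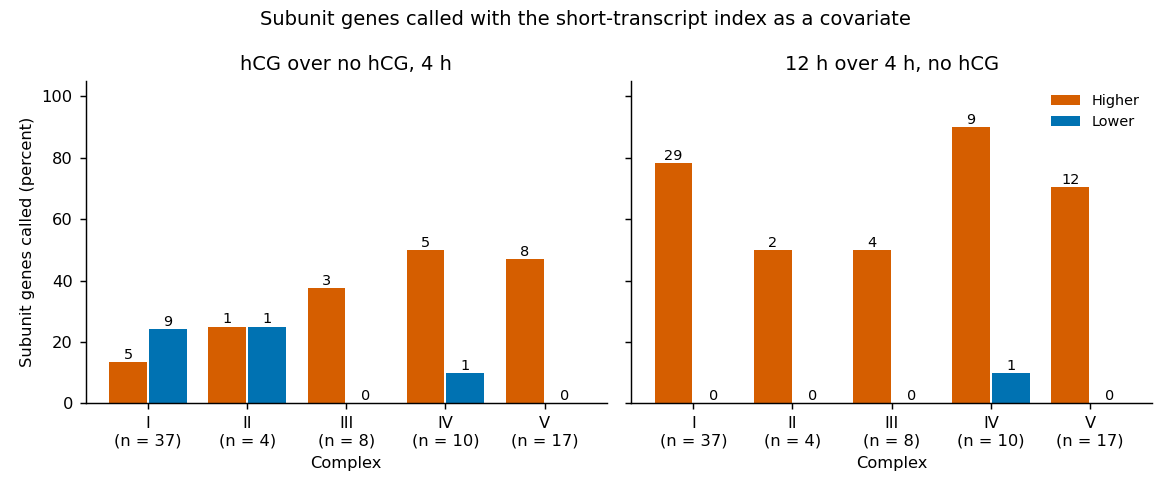
Percent of the subunit genes of each complex called higher (orange) or lower (blue) in the fit with the short-transcript index, for hCG over no hCG at 4 h and for 12 h over 4 h without hCG, with the number of genes above each bar. At 4 h of hCG 9 of the 11 lower calls are in complex I, which holds 37 of the 76 genes, and 20.2% of all genes are called lower. With culture time 56 genes are higher and 1 lower, where 24.5% of all genes are called higher and 24.5% lower.

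hCG was set against no hCG at 12 h in siNC cells in the same way. With groups alone edgeR's test called none of the 76, where 16.5% of all genes were called, and 1 had an unadjusted p under 0.05. DESeq2 also called none of the 76, where it called 1504 of all genes higher and 1560 lower. The median log2 fold change was 0.32, against -0.01 over all genes and 0.29 over the 343 other short genes. Of the 76, 75 lay above 0, with Cox5a at the top and Cox6b2 at the bottom (-0.55 ± 0.31, adjusted p = 0.260). By label, the median log2 ratio was 1.26 under A_1, 0.24 under A_2, -0.27 under B_2 and 0.06 under B_3, while the index differed by 1.56, 0.29, -0.39 and 0.11. Without A_1 the median was -0.02. Higher with hCG under each label were Cox5a and Ndufa10, where 19.4% of all genes were. The granulosa marker list summed to 1784 to 2043 CPM with hCG against 2237 to 2585 CPM without, and the macrophage list to 9.88 to 14.2 CPM against 4.42 to 6.89 CPM, both without overlap. The red blood cell list was at 101 to 907 CPM with hCG against 112 to 1496 CPM without, the endothelium list at 4.45 to 10.9 CPM against 4.25 to 4.99 CPM, and the smooth muscle list at 32.0 to 60.6 CPM against 50.1 to 118 CPM, and the fibroblast, oocyte and theca lists overlapped as well. Their part in the result was not tested.

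Cox5a was the subunit gene most often called at 12 h of hCG. It was at 263, 161, 172 and 139 CPM with hCG, against 84.0, 104, 156 and 104 CPM without. The lowest hCG library lay below the highest library without hCG, and the log2 fold change was 0.71 ± 0.28 with groups alone (adjusted p = 0.0857). With the replicate block it was 0.65 ± 0.19 (adjusted p = 0.0175), the 1 gene called, where 13.1% of all genes were called higher. In the authors' deposited table it was 0.70 (adjusted p = 0.0203), the 1 subunit gene under 0.05, where 24.5% of the listed genes were. With the covariate 4 genes were called higher, where 16.3% of all genes were, and 1 lower, where 14.4% were. They were Cox5a (0.43 ± 0.05, adjusted p = 3.71e-07), Uqcrb of complex III (0.22 ± 0.06, 0.00481), Ndufs5, an accessory subunit of complex I (0.27 ± 0.08, 0.0115), and Sdhb (0.21 ± 0.06, 0.0130), and the lower one was Cox6b2 (-0.73 ± 0.27, 0.0473). Sdha was at 286, 267, 300.2 and 281 CPM with hCG, against 272, 281, 294 and 283 CPM without, and the groups overlapped throughout (0.01 ± 0.11, adjusted p = 0.980).

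The hCG effect at 12 h was set against that at 4 h as the difference of their log2 fold changes, which uses the libraries of both comparisons. With groups alone edgeR's test called none of the 76, where 3.8% of all genes were called, and 12 had an unadjusted p under 0.05. DESeq2 called 1 of the 76, where it called 584 of all genes higher and 477 lower. The median difference was 0.70, against 0.04 over all genes and 0.63 over the 343 other short genes. All 76 lay above 0, led by Ndufv2, an iron-sulfur subunit of complex I (1.19 ± 0.52, adjusted p = 0.208). Without A_1 the median of the 76 was 0.03. With the replicate block 3 were called higher, where 8.36% of all genes were: Ndufa10 (0.42 ± 0.12, adjusted p = 0.0224), Ndufb10 (0.86 ± 0.27, 0.0408) and Ndufs5 (0.84 ± 0.27, 0.0456). With the covariate the called genes were the same 3 on the higher side, where 6.72% of all genes were, and 6 on the lower side, where 4.39% were. The lower ones were Atp5d (-0.53 ± 0.14, adjusted p = 0.0178), Ndufb2 (-0.37 ± 0.12, 0.0462), Atp5g3 (-0.35 ± 0.08, 0.00940), Uqcrfs1 (-0.31 ± 0.09, 0.0293), Uqcrh (-0.30 ± 0.09, 0.0299) and Cox6c (-0.30 ± 0.09, 0.0447).

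The siRNA against Nts was set against the control siRNA under hCG, and no subunit gene passed the threshold at either time. At 4 h edgeR's test called none with groups alone, where 0.00649% of all genes were called, and none with the covariate, where 0.026% were. No subunit gene had an unadjusted p under 0.05 with groups alone. DESeq2 called no subunit gene, where it called 3 of all genes higher and 3 lower. At 12 h edgeR's test called none with groups alone, where 0.162% of all genes were called, and none with the covariate, where 1.06% were. With groups alone 1 had an unadjusted p under 0.05. DESeq2 called no subunit gene at 12 h, where it called 22 of all genes higher and 39 lower. The median log2 fold change was 0.13 at 4 h and 0.08 at 12 h with groups alone, against 0.10 and 0.08 over the 343 other short genes. By label, the median log2 ratio was 0.56, -0.18, -0.03 and -0.02 at 4 h and 0.15, -0.31, -0.03 and 0.43 at 12 h, each with the sign of the difference in the index. At 4 h the largest fold change was that of Cox6b2, at 0.603, 0.197, 0.393 and 0.445 CPM in siNTS cells against 0.362, 0.241, 0.288 and 0.228 CPM in siNC cells (0.54 ± 0.38, adjusted p = 1.00). At 12 h Cox6b2 again had the largest fold change (0.30 ± 0.31, adjusted p = 1.000) and Cox5a the most negative (-0.04 ± 0.28, 1.000).

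Ndufs1 had the smallest p of the 76 subunit genes in the siRNA comparison at 12 h. It was at 130.2, 123, 127 and 127 CPM in siNTS cells, against 104, 109, 106 and 104 CPM in siNC cells. Every siNTS library lay above every siNC library, and edgeR's quasi-likelihood test gave a log2 fold change of 0.26 ± 0.09 (unadjusted p = 0.00870, adjusted p = 0.807) with groups alone. The adjusted p was 0.273 with the replicate block and 0.161 with the covariate. The authors' deposited table gives 0.26 with an adjusted p of 0.0280, the 1 subunit gene under 0.05 there, where 2.3% of the listed genes were. It has none at 4 h, where 0.418% were. Across the authors' tables like raw p-values have like adjusted p-values in every comparison, so their adjustment appears to span the comparisons. The adjusted p-values given above were set within 1 comparison and are not a like measure. At 4 h Ndufs1 was at 80.8, 93.4, 89.5 and 75.8 CPM in siNTS cells, against 68.1, 87.0, 80.8 and 78.3 CPM in siNC cells, higher under 3 labels and lower under B_3. At 12 h Ndufs1 and Uqcrc1 were higher in siNTS cells under each label, where 10% of all genes were.

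**Figure D5:**
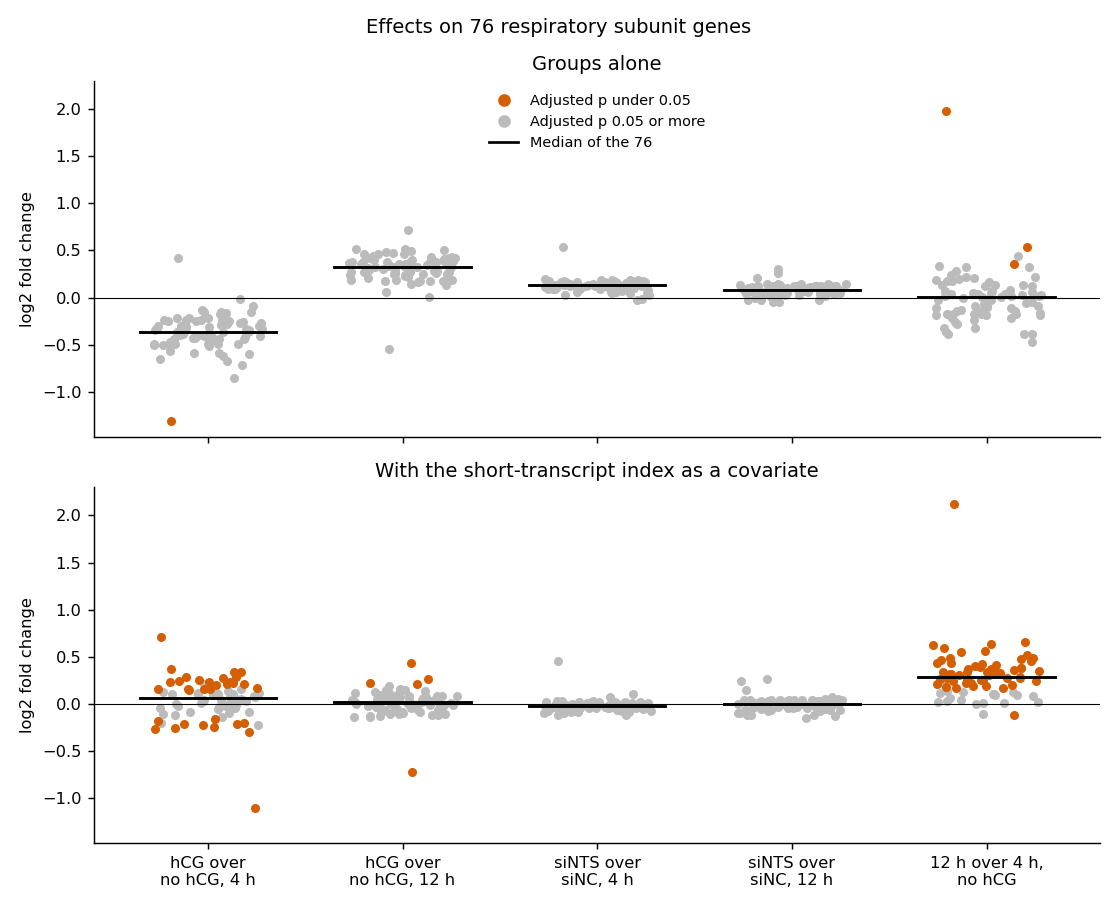
log2 fold change of each of the 76 subunit genes in 5 comparisons, with groups alone (top) and with the short-transcript index as a covariate (bottom). Orange points have an adjusted p under 0.05 and black bars are medians. With groups alone the medians are -0.36, 0.32, 0.13, 0.08 and 0.00. With the covariate the culture time comparison has 56 genes called higher and 1 lower, where 24.5% of all genes are called higher and 24.5% lower.

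Genes that regulate, build or feed the chain were read from lists in the fit with groups alone, in which 7.95% of all genes were called higher and 11.1% lower with hCG at 4 h, 8.18% and 8.36% at 12 h, and 14.8% and 16% with culture time. Counts this small in short lists show nothing particular to them. The hCG and culture time comparisons share the libraries without hCG, so the signs of a gene in them, here and in the lists below, are not independent. Of 13 regulators of respiratory gene transcription, 1 was higher and 3 were lower at 12 h over 4 h without hCG. The coactivator Ppargc1a was higher (1.33 ± 0.37, adjusted p = 0.00821). Lower were Nrf1, the factor of the element above (-0.41 ± 0.10, adjusted p = 0.00486), and Gabpb1, a subunit of GABP (-0.70 ± 0.16, 0.00242). Tfam, which packages mitochondrial DNA, was also lower (-0.35 ± 0.11, 0.0255). With hCG 1 of the 13 was lower at 12 h, Ppargc1a (-1.27 ± 0.36, adjusted p = 0.0177), and 1 at 4 h, the mitochondrial rRNA methyltransferase Tfb1m (-0.71 ± 0.20, 0.0150), which became 2 higher and 1 lower at 4 h with the block.

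Of 15 complex I assembly factors tested, 1 was higher with hCG at 12 h, Ndufaf4 (0.67 ± 0.14, adjusted p = 0.00154), and 2 were lower at 4 h, Acad9 (-0.33 ± 0.09, 0.00960) and Nubpl (-1.01 ± 0.30, 0.0216). With culture time Ndufaf4 was lower (-0.87 ± 0.14, adjusted p = 7.39e-05) and Acad9 higher (0.24 ± 0.09, 0.0456). Of 34 assembly factors of the other complexes, 1 was higher and 2 were lower with hCG at 4 h, 2 were higher at 12 h, and 1 was higher and 2 were lower with culture time. In the fit blocked by label more genes of these lists were called, as over all genes: 7 of the 15 were lower with hCG at 4 h, 3 higher at 12 h and 6 higher in the difference between times, and with culture time 1 was higher and 3 lower. Of the 34, the block gave 2 higher and 6 lower at 4 h, 6 higher at 12 h, 6 higher in the difference, and 2 higher and 7 lower with culture time. In that fit 12.8% of all genes were called higher and 17.3% lower with hCG at 4 h, 13.1% higher at 12 h, 8.36% higher in the difference, and 21.9% higher and 21.4% lower with culture time. Cycs, the electron carrier cytochrome c, was with groups alone the 1 gene called among 8 chain components outside the name rule, lower at 12 h over 4 h without hCG (-0.84 ± 0.30, adjusted p = 0.0379), and it was also lower with the covariate (-0.53 ± 0.08, 9.04e-06). With the block 2 of the 8 were lower with hCG at 4 h, 1 was higher in the difference, and 1 was higher and 1 lower with culture time.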

How the data were processed

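RNA of 24 cultures was sequenced as stranded poly(A) libraries, per the labels' protocols. The deposited expected counts were estimated by the authors per gene with Salmon 1.4.0, per the submitters' processing notes, which also name R 4.1.0, edgeR, limma and GRCm39. The authors' deposited comparison tables give log2 fold changes and p-values, raw and adjusted, and their model is not given in the sources used here. Like raw p-values have like adjusted p-values across those tables, so their adjustment appears to span the comparisons, unlike the one used here. The subunit genes and lists were chosen with earlier results of these data known.

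Counts were rounded to whole numbers and tested with edgeR 4.0.16 (R 4.3.3, limma 3.58.1): TMM scaling, filterByExpr (15405 of 39253 genes kept), glmQLFit over the 6 groups of 4 libraries (18 residual degrees of freedom), 6 contrasts and Benjamini-Hochberg adjustment over all genes tested at 0.05. CPM values are normalised by TMM, and the 1 CPM limit used unnormalised means. Depth was about 26182200 to 45401100 counts per library, and no 2 libraries of a group were repeats by a chi-square test of their counts (22.4 or more times the degrees of freedom in 36 pairs). DESeq2 1.42.0, RLE size factors, no filter, a block, fewer libraries and each label left out were alternatives. A covariate from transcript lengths (median of GENCODE M21 protein-coding transcripts paired with curated RefSeq mRNAs, build GRCm38, matched by Entrez ID; genes at a mean log2 CPM of at least 4) was added after seeing the data. The scripts were run on simulated counts, with an index drawn at random, unrelated to the groups and given exactly to the fit. In the data the index was estimated and differed between groups, so that simulation does not test the covariate fit as used here.

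Labels mark shared culture dates, so results with the label as a block are given. Same-label deviations had a median correlation of 0.53 over 20 same-label pairs of libraries (17 over 0.1, lowest -0.69, highest 0.96). Named genes were those called, up to 10 each way by adjusted p, a fixed set of core subunits and alternative forms, and the extreme fold changes of each contrast. Results for some single genes are not reported here.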

Additional observations from a re-analysis of the deposited data

Results flagged for a closer look

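Within groups of 4 libraries, a single library stood far from the other 3 in 2 of 60 groups of values examined, where chance gives about 1 in 20. Ndufa10 was at 123.6 CPM in library B_2 of siNC cells without hCG at 12 h, against 104.4 to 106.4 CPM in the other 3 libraries of that group, and the gap made up 0.897 of the group's range, above Dixon's limit for 4 values. That library also had the highest short-transcript index of its group, at 0.56, although the slope of Ndufa10 on the index was 0.06. Cox6b2 was at 0.995 CPM in library A_2 of siNTS cells with hCG at 12 h, against 2.62 to 2.93 CPM in the other 3, a gap of 0.839 of the range. That library had the lowest index of its group, at -0.33.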

How the results depend on the processing

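Counts of called subunit genes depended on how library differences were handled, and counts over all genes moved too: with hCG at 4 h 1224 genes were called higher and 1712 lower with groups alone, 2680 and 3117 with the index as a covariate, and 3149 and 3751 with covariate and block. For hCG at 4 h, 1 was called with groups alone, 10 with the replicate block, 6 with a culture date block, 2 with DESeq2, 0 to 1 with a label left out, and 0 without the single A_1 library of siNC cells without hCG at 4 h. The index as a covariate gave 33, 37 with the replicate block as well, 28 with other length limits (1500 and 2500 nt) and 26 without A_1. For hCG at 12 h the 0 became 1 with either block and without that single library, 5 with the covariate, 7 with covariate and block, 5 with other limits and 5 without A_1, and stayed at 0 with each label left out in turn. For the difference between times the 0 became 3 with the replicate block, 1 with the date block, 1 with DESeq2, 9 with the covariate, 12 with covariate and block, 6 with other limits and 4 with the covariate without A_1. For culture time the 3 became 2 to 21 with a label left out, 57 with the covariate, 58 with covariate and block, 60 with other limits and 57 without A_1. Over all genes at 12 h of hCG, 1260 were called higher and 1288 lower with groups alone. The covariate gave 2505 and 2221, and covariate and block 3172 and 2746. In the same order, counts over all genes for the difference were 362 and 224, 1035 and 677, and 1701 and 1096. For culture time they were 2282 and 2468, 3775 and 3773, and 4255 and 4335. DESeq2 called 1590 of all genes higher and 1888 lower with hCG at 4 h. The siRNA comparisons gave 0 subunit genes in every setting run. Added to groups alone, the block changed no call of a subunit gene beyond those named in the report. Added to the covariate, it kept 32 of the 33 calls at 4 h of hCG, all 5 at 12 h, 8 of the 9 of the difference and all 57 with culture time. For the effects of 25 named genes, 1728 values under other settings kept their sign and side of the threshold, 82 kept their sign and newly passed it, 7 kept their sign and no longer passed it, 433 had the other sign without a call in both settings, and 0 had the other sign with a call in both. The cause of these shifts was not tested. Depth limits Cox6b2, Cox6a2 and Cox7a1, all near 1 CPM.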

Other observations

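Some genes of pathways that feed electrons into the chain passed the test with groups alone, where 19.1% of all genes were called with hCG at 4 h, 16.5% at 12 h and 30.8% with culture time, and nothing particular to a pathway is read from the counts. In the synthesis of coenzyme Q, the lipid that carries electrons to complex III, 2 of 13 genes were lower with hCG at 4 h, Coq8a (-1.87 ± 0.31, adjusted p = 0.000192) and Coq9 (-0.63 ± 0.16, 0.00730). At 12 h of hCG 3 were higher: Coq10b (0.93 ± 0.25, adjusted p = 0.0126), Pdss1, which builds the side chain (0.87 ± 0.24, 0.0136), and Coq5 (0.30 ± 0.10, 0.0320). At 12 h over 4 h without hCG, Coq8a (1.84 ± 0.31, adjusted p = 0.000113), Coq10a (0.64 ± 0.14, 0.00156) and Coq9 (0.52 ± 0.16, 0.0162) were higher and Pdss1 was lower (-1.26 ± 0.24, 0.000433). These comparisons share the libraries without hCG, so their signs are not independent.

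Of 17 genes of the tricarboxylic acid cycle and pyruvate dehydrogenase, 4 were higher with hCG at 12 h: Pdha1 (0.41 ± 0.08, adjusted p = 0.000641), Pdhx (0.47 ± 0.11, 0.00437), Dlst (0.24 ± 0.07, 0.0222) and Idh3a (0.55 ± 0.19, 0.0480). At 4 h Pdha1 was higher (0.25 ± 0.08, adjusted p = 0.0251) and Suclg2 lower (-0.47 ± 0.15, 0.0319). With culture time 3 were higher and 2 lower. Among them, Ogdh (0.55 ± 0.10, adjusted p = 0.000315) and Idh3b (0.34 ± 0.11, 0.0250) were higher and Idh3a (-0.61 ± 0.19, 0.0175) and Dld (-0.32 ± 0.11, 0.0250) lower. Of 9 genes of uncoupling and mitochondrial oxidant defence, Ucp3 (2.82 ± 0.53, adjusted p = 0.000564) and the manganese superoxide dismutase Sod2 (0.56 ± 0.14, 0.00684) were higher with hCG at 12 h, and the thioredoxin reductase Txnrd2 was lower at 4 h (-0.63 ± 0.10, 0.000189). With culture time Ucp2 (0.93 ± 0.15, adjusted p = 9.47e-05) and Txnrd2 (0.46 ± 0.10, 0.00197) were higher. With the replicate block, 1 of the 13 coenzyme Q genes was higher and 4 were lower with hCG at 4 h. Of the 17, 1 was higher and 3 lower, and of the 9, 1 was higher and 1 lower, where 12.8% of all genes were higher and 17.3% lower. At 12 h of hCG 3 of the 13 were higher and 1 lower, and 6 of the 17 and 2 of the 9 were higher. Over all 15405 genes 2022 (13.1%) were higher there and 2142 lower. In the difference between times 6 of the 13, 3 of the 17 and 1 of the 9 were higher, where 8.36% of all genes were. No gene of these lists was called in the siRNA comparisons with groups alone.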
